A study of Homo sapiens with 12 samples.

Results

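MDA-MB-231 and SUM159 are established triple-negative breast cancer (TNBC) cell lines, and knockdown (KD) of TRMT112 moved a group of polysome-associated mRNAs in opposite directions in them. A gene entered this group when its level in KD and control libraries differed at an adjusted p-value under 0.05 and by at least 2-fold in each line, with opposite signs. The rule gave 96 of the 16538 genes tested (0.580%). Of these, 47 (0.284%) were higher in KD than in control in MDA-MB-231 and lower in SUM159, and 49 (0.296%) were lower in MDA-MB-231 and higher in SUM159. The difference of the KD effects, MDA-MB-231 minus SUM159, is the contrast that the group describes.

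TRMT112 is a small zinc-binding protein that activates several methyltransferases, among them enzymes that methylate the 18S rRNA, tRNAs and a translation release factor. mRNAs carried by several ribosomes sediment as polysomes, so the abundance of an mRNA in polysome RNA combines the amount of that mRNA with its loading by ribosomes. The level of an interferon-response gene or of a growth factor gene in such RNA is therefore not a measure of transcription alone.

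The KD groups carried a TRMT112 shRNA in a lentiviral vector. The control is called EV (empty vector) in the labels and a non-silencing shRNA in the study's methods. BT549, another TNBC line, carried EV or TRMT112 overexpression (OE). Each of the 6 groups has 2 libraries, 12 in all. Cells were transfected, and those for KD were selected with puromycin and those for OE with G418 sulfate. The methods name 1 KD construct, so effects of that construct other than on TRMT112 cannot be told apart from those of TRMT112. SUM159 was grown with insulin and hydrocortisone and MDA-MB-231 without, so the line and its medium cannot be told apart either. Nothing says that the 2 libraries of a group came from separate cultures, and the p-values then measure the spread between libraries, which may be technical. Values below are normalised counts, that is, expected counts per gene divided by the library's scaling factor and brought to the mean library size. Fold changes are log2 values from edgeR's quasi-likelihood test with Benjamini-Hochberg adjustment over all genes tested.

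Between 22954226 and 27434677 expected counts were assigned per library. Genes present in the EV libraries of 1 KD line at 10 or more CPM (counts scaled to the library total) and under 0.1 CPM in those of the other kept the lines apart in KD too. The 75 such genes of MDA-MB-231 summed to 3761 to 4126 CPM in its 4 libraries and to 1.39 to 14 CPM in those of SUM159. The 97 such genes of SUM159 summed to 6252 to 7410 CPM in its 4 libraries and to 0.866 to 2.94 CPM in MDA-MB-231. Of the markers of the lines' type, VIM was between 704 and 1986 CPM over the 12 libraries, PGR was at or under 0.417 CPM, ERBB2 was between 57.9 and 143 CPM, and ESR1 was not analysed here. The leukocyte gene PTPRC was at or under 0.579 CPM in every library.

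TRMT112 itself was 4147 and 3938 in MDA-MB-231 EV and 1764 and 1682 in KD, and 6332 and 6566 in SUM159 EV and 3909 and 3699 in KD. KD libraries were below EV libraries in both lines, without overlap. It fell by 1.23 on the log2 scale (SE 0.04) in MDA-MB-231 and by 0.76 (SE 0.04) in SUM159. The difference of these effects was -0.47 (SE 0.06, adjusted p = 1.83e-07), so TRMT112 fell further in MDA-MB-231, and the part of that inequality in the values below was not tested.

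The KD effect differed between the lines, at an adjusted p under 0.05, in 8415 genes (50.9% of those tested), with 4576 (27.7%) higher and 3839 (23.2%) lower in MDA-MB-231. The excess of higher genes did not hold in every setting, with 4174 higher and 4399 lower when the 8 libraries of these lines were fitted alone, and 4207 and 4238 when scaled by library size only. Of these 8415 genes, 3808 were changed in SUM159 only, 878 in MDA-MB-231 only, 1499 in the same direction in both lines, 205 in neither, and 2025 in opposite directions. The 2025 genes are 12.2% of those tested. Among them, 137 changed at least 2-fold in MDA-MB-231, 364 in SUM159, and the 96 described here in both. At least 2-fold changes in either direction were found in 3.20% of all genes in MDA-MB-231 and in 15.7% in SUM159.

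**Figure D1:**
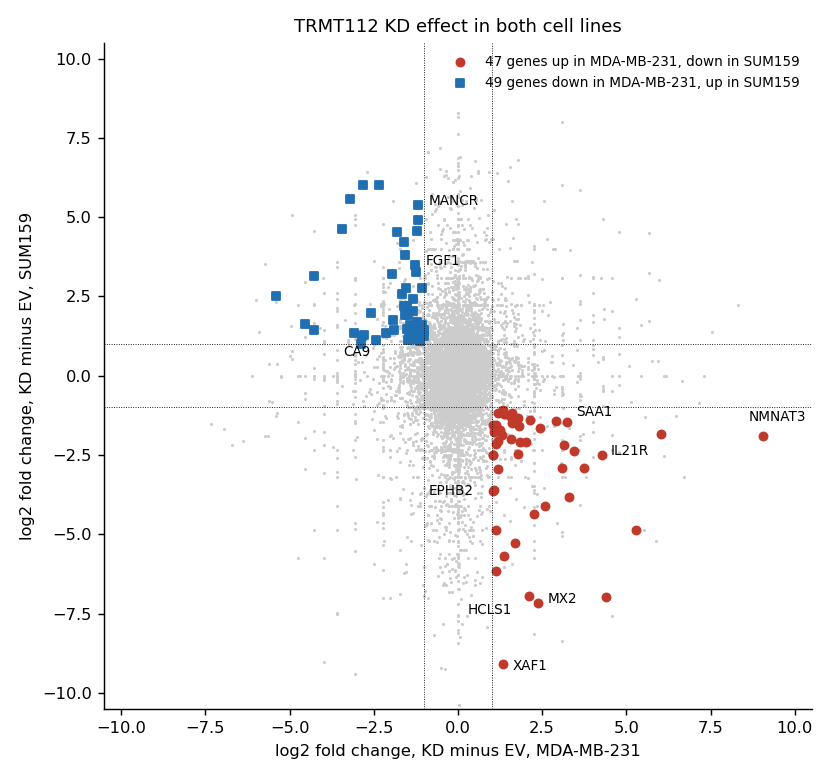
Log2 fold change of KD over EV for each gene tested, in MDA-MB-231 on the horizontal axis and in SUM159 on the vertical axis. Grey points are all genes tested, red circles the 47 genes up in MDA-MB-231 and down in SUM159, blue squares the 49 genes of the opposite kind, and dotted lines mark 2-fold. Fitted values of genes near 0 counts in a group depend on the prior count and are not bounds.

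In the first group the median log2 change was 1.70 in MDA-MB-231 (1.03 to 9.07) and -2.16 in SUM159 (-9.10 to -1.07). In the second it was -1.55 in MDA-MB-231 (-5.39 to -1.01) and 1.90 in SUM159 (1.01 to 6.02). The median over all genes tested was 0.00 in both lines. Since these contrasts chose the genes, the values are a description. All 96 genes also had a called difference of the KD effects, which follows from the rule. KD and EV libraries did not overlap in both lines for 46 of 47 and 48 of 49 genes. The rule itself favours such genes, and the share over all genes tested was not computed, so nothing is read from these counts. Just inside the 2-fold limit lay NUDT7 (-1.01 in MDA-MB-231, 1.24 in SUM159) and SH2D3A (-2.88 and 1.01), and just outside it FLRT1 (1.00 and -1.68) and TTLL3 (-1.00 and 1.12), whose smaller changes were both 0.998 in size before rounding.

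Many of these mRNAs were scarce. Averaged over the 8 KD and EV libraries, only 30 of 47 and 24 of 49 reached 50 counts, and 14 and 20 had a group at or under 3 counts in each library in one of the lines. A count of 0 allows up to 3 counts, so a fold against a group at 0 in both libraries is written as a lower bound, taking 3 counts per library. Such bounds take in counting error alone. With those groups set to 3 counts, a setting chosen after seeing the data, 44 of 47 and 40 of 49 still changed at least 2-fold in both lines. TMEFF2, P4HA3 and HLF were at or under 3 counts in both groups of MDA-MB-231, and SMIM10 in both groups of SUM159, so no fold is given for them there.

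The first group held 46 protein-coding genes and 1 long noncoding RNA, and the second 38 and 11. Without a gene symbol were 3 and 12. Sorted by role after their values were seen, the 47 genes fell into 8 interferon-inducible or antiviral genes, 5 leukocyte receptors and signalling proteins, 2 acute phase genes, 7 genes of growth signalling and cell shape, 4 transporters and channels, 7 metabolic enzymes, 7 membrane, matrix or cytoskeletal genes and 7 others. The 49 genes fell into 5 growth factors and secreted signals, 8 matrix and surface proteins, 3 transcription factors, 9 genes of signalling and vesicle traffic, 3 metabolic enzymes, 4 named noncoding RNAs, 5 other coding genes and 12 without a symbol. Because the roles were assigned to known members, no test was made of them.

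Interferons bind cell surface receptors and raise genes whose promoters carry the interferon-stimulated response element (ISRE), many of which encode antiviral proteins. The 8 genes of this kind in the first group were XAF1, MX1, MX2, OAS3, BATF2, APOL1, APOL3 and SLC15A3, with a median change of 1.33 in MDA-MB-231 and -1.99 in SUM159. XAF1, a proapoptotic partner of XIAP, had 16 and 8.22 normalised counts in MDA-MB-231 EV, 36.5 and 25.0 in KD, 76.7 and 60.3 in SUM159 EV and 0 in both SUM159 KD libraries. It was thus at least 24.4-fold lower in SUM159 KD and higher in both MDA-MB-231 KD libraries than in either EV library. MX1, a dynamin-like GTPase that blocks virus replication, had 19.8 and 29.2 in MDA-MB-231 EV, 65.6 and 56.8 in KD, 96.9 and 109 in SUM159 EV and 24.2 and 31.1 in KD. OAS3, which makes the second messenger that activates RNase L, had 56.4 and 54.8 in MDA-MB-231 EV, 127 and 136 in KD, 382 and 390 in SUM159 EV and 105 and 129 in KD. For both genes KD and EV libraries did not overlap within a line, which the rule favours. In MX1 the MDA-MB-231 EV and SUM159 KD libraries overlapped, and in OAS3 the KD libraries of the lines did. The log2 changes were 1.31 (SE 0.22) and -1.87 (SE 0.19) for MX1, and 1.24 (SE 0.14) and -1.71 (SE 0.10) for OAS3. The OAS3 value sums many transcripts, since its leading transcript held 25.1% of the gene's counts. That transcript is annotated as nonsense-mediated decay and not as protein coding.

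MX2, the paralog of MX1 that restricts retroviruses, had 2.82 and 5.48 in MDA-MB-231 EV, 20.6 and 24.1 in KD, 17.2 and 18.1 in SUM159 EV and 0 in both SUM159 KD libraries. APOL1, a channel-forming apolipoprotein, had 39.5 and 35.6 in MDA-MB-231 EV, 137 and 166 in KD, 442 and 459 in SUM159 EV and 90.7 and 118 in KD. BATF2, a leucine zipper transcription factor, had 41.4 and 48.4 in MDA-MB-231 EV, 122 and 107 in KD, 24.2 and 19.1 in SUM159 EV and 9.07 and 11.2 in KD. BATF2 was the only one of the 8 that was higher in MDA-MB-231 EV than in SUM159 EV, and the other 7 were higher in SUM159 EV.

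Some of these genes are neighbours. BACE2, MX2 and MX1 follow each other on the plus strand of chromosome 21 (GRCh38, GENCODE 44: chr21:41167801-41282530, chr21:41361999-41409393 and chr21:41420020-41470071), with 79469 bases between BACE2 and MX2 and 10627 between MX2 and MX1. BACE2, an aspartic protease, had 362 and 336 in MDA-MB-231 EV, 1223 and 1197 in KD, 608 and 608 in SUM159 EV and 241 and 241 in KD. Farther along, C2CD2 also rose in MDA-MB-231 (0.33) and fell in SUM159 (-0.43), below 2-fold. PRDM15 and ZBTB21, in the same stretch, were at -0.26 and -0.23 in MDA-MB-231 and at -0.35 and -0.88 in SUM159. Of these changes only that of ZBTB21 in SUM159 passed the test. RIPK4 and ABCG1 fell in SUM159 (-1.56 and -3.83) and had log2 values of 0.19 and 0.68 in MDA-MB-231 (adjusted p = 0.284 and 0.586). APOL1 and APOL3 lie on chromosome 22 with 86894 bases between them. APOL2, which lies between them, rose in MDA-MB-231 (0.91) and was at -0.03 in SUM159 (adjusted p = 0.779). Beyond APOL1, MYH9 rose in both MDA-MB-231 and SUM159 (0.22 and 0.23), as did TXN2 (0.32 and 0.36).

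The promoters of the 5 members that hold an ISRE are shown so that its place can be read. Of the 8 interferon-inducible genes, 4 had a promoter entry, of which MX1 and OAS3 hold the motif and XAF1 and BATF2 do not. GIMAP2, PDGFRB and SLC2A12 are members of other classes. Each sequence runs 5′ to 3′ on the gene's strand from 250 bases before to 50 bases after the first RefSeq start listed for the gene (GRCh38.p14), and capitals mark ISRE letters (GAAA, any 2 bases and GAAA again, on either strand) and, in OAS3, also an NF-kB match (GGG, any 2 bases and TTTCC). The windows are chr21:41420308-41420607 (plus strand) for MX1, chr12:112938224-112938523 (plus) for OAS3, chr7:150685456-150685755 (plus) for GIMAP2, chr5:150155796-150156095 (minus) for PDGFRB and chr6:134052575-134052874 (minus) for SLC2A12.
MX1: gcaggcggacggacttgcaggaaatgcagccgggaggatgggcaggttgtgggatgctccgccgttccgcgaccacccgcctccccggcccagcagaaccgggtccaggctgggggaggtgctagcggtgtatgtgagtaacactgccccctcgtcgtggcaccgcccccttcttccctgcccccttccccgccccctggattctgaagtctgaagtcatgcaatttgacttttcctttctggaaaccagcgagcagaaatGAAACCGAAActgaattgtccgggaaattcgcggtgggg
OAS3: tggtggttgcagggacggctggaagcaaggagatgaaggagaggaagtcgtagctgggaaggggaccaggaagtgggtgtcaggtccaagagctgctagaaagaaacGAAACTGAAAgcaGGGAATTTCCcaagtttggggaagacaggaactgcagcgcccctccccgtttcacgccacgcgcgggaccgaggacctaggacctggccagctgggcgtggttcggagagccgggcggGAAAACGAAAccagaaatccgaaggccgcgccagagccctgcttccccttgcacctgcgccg
GIMAP2: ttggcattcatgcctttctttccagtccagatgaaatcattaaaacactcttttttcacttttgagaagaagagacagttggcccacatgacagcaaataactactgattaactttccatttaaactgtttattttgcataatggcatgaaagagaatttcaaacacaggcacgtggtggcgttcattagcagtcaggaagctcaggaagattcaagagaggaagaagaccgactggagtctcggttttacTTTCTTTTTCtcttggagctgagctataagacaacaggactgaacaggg
PDGFRB: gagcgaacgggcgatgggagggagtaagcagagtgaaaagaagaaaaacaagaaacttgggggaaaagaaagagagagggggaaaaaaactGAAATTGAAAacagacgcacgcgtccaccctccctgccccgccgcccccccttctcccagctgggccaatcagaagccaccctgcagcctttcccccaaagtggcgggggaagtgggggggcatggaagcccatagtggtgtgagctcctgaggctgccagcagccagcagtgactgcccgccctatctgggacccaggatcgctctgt
SLC2A12: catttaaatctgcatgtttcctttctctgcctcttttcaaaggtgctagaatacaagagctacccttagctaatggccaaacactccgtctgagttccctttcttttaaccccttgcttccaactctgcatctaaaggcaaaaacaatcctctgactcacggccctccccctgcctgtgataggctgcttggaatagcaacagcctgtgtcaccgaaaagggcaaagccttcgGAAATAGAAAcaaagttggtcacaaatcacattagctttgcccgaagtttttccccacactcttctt
The MX1 match began at base 11 and the GIMAP2 match at base 1, counted from the start as base 0. The OAS3 matches began at -143 and -12, that of PDGFRB at -159 and that of SLC2A12 at -17. The first listed start of MX1 and OAS3 lies inside the gene as GENCODE annotates it. An entry was found for 29 of the 47 genes and for 30 of the 49. The ISRE letters, a motif added after the members were seen, were in 5 of 29 (17.2%) and in 0 of 30, against 2.86% of the 11856 tested genes with an entry and 3.65% of all 27303 promoters. These are matches of letters in a window and say nothing of binding.

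The other motifs searched, on both strands, are given with the share of tested genes and of all promoters. TGANTCA (AP-1) was in 10.3% and 13.3% of the windows, against 4.72% of tested genes and 7.76% of all promoters. GGGCGG (SP1) was in 65.5% and 56.7%, against 69.3% and 44.6%. TGACGT (the CRE core) was in 6.90% and 13.3%, against 11.5% and 8.33%. CACGTG (E-box) was in 10.3% and 10.0%, against 9.89% and 7.44%. CATTCC (TEAD core) was in 13.8% and 13.3%, against 10.8% and 14%, and TATAAA in 3.45% and 3.33%, against 5.80% and 12%. TGATGNAA (CARE) was in 6.90% and 3.33%, against 1.70% and 3.67%, and the NF-kB letters in 3.45% and 0%, against 2.17% and 1.91%. The median ratio of observed to expected CpG was 0.584 and 0.601, against 0.833 in the tested genes and 0.580 in all promoters.

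Of the 5 genes sorted into leukocyte receptors and signalling, HCLS1, IL21R and CSF2RA are given here. The others were PTGIR, the prostacyclin receptor, and GIMAP2. HCLS1, an actin-binding substrate of Src kinases in blood cells, had 132 and 147 in MDA-MB-231 EV, 558 and 643 in KD, 355 and 366 in SUM159 EV and 3.02 and 2.59 in KD. IL21R, the interleukin 21 receptor, had 1.88 and 2.74 in MDA-MB-231 EV, 45.0 and 49.1 in KD, 124 and 114 in SUM159 EV and 27.2 and 15.6 in KD. CSF2RA, the alpha chain of the GM-CSF receptor, had 114 and 157 in MDA-MB-231 EV, 333 and 281 in KD, 22.2 and 15.1 in SUM159 EV and 5.04 and 0 in KD. For HCLS1 and IL21R the line with the higher level changed places between EV and KD, while CSF2RA was higher in MDA-MB-231 in both. HCLS1 rose 4.31-fold in MDA-MB-231 and was close to 0 in both SUM159 KD libraries. PTPRC, the defining leukocyte marker, was at or under 0.579 CPM in every library, as given above.

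SAA1, an acute phase apolipoprotein, had 34.8 and 33.8 in MDA-MB-231 EV, 337 and 312 in KD, 7014 and 5741 in SUM159 EV and 2436 and 2224 in KD. Its reads can be shared with the near-identical SAA2, so the count is uncertain. SERPINA1, the alpha-1 antitrypsin gene, had 5.64 and 8.22 in MDA-MB-231 EV, 85.3 and 69.4 in KD, 114 and 83.4 in SUM159 EV and 21.2 and 17.3 in KD. The lines moved toward each other in SAA1 and changed places in SERPINA1.

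Of the receptor tyrosine kinases, EPHB2, an ephrin-B receptor, and PDGFRB, the beta receptor of platelet-derived growth factor, were in the first group. EPHB2 had 510 and 440 in MDA-MB-231 EV, 945 and 1019 in KD, 709 and 617 in SUM159 EV and 48.4 and 57.1 in KD. PDGFRB had 222 and 226 in MDA-MB-231 EV, 561 and 608 in KD, 232 and 249 in SUM159 EV and 99.8 and 109 in KD. PDGFRB thus started from levels in EV that did not pass the test (log2 -0.10, adjusted p = 0.441) and differed by 2.48 in KD. The remaining signalling genes included CDK18, a cyclin-dependent kinase, DUSP9, a phosphatase of MAP kinases, ARHGEF16, a guanine nucleotide exchange factor, CDC42EP5, an effector of CDC42, and JCAD, a protein of endothelial junctions.

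Metabolic enzymes of the first group act in different pathways. ACSS1, the mitochondrial acetyl-CoA synthetase, had 94.1 and 126 in MDA-MB-231 EV, 503 and 475 in KD, 225 and 202 in SUM159 EV and 85.7 and 75.2 in KD. GFPT2, the first enzyme of hexosamine synthesis, had 147 and 114 in MDA-MB-231 EV, 411 and 372 in KD, 1017 and 1048 in SUM159 EV and 450.0 and 464 in KD. NMNAT3, which makes NAD in mitochondria, had 0 in both MDA-MB-231 EV libraries, 71.2 and 62.6 in KD, 157 and 125 in SUM159 EV and 31.3 and 44.1 in KD. NMNAT3 was at least 24.1-fold higher in MDA-MB-231 KD, and COPB2-DT overlaps it on the other strand, with the strand setting of the counting not stated. GGT5, a gamma-glutamyltransferase, had 16 and 13.7 in MDA-MB-231 EV, 109 and 115 in KD, 414 and 409 in SUM159 EV and 152 and 150.0 in KD. The other enzymes were SUGCT, CYP2S1 and GBGT1.

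At the membrane, DYSF, the membrane repair protein dysferlin, had 1269 and 1218 in MDA-MB-231 EV, 3824 and 3791 in KD, 24.2 and 21.1 in SUM159 EV and 10.1 and 6.05 in KD. ANXA8, an annexin, had 6.59 and 8.22 in MDA-MB-231 EV, 24.4 and 48.2 in KD, 4041 and 4278 in SUM159 EV and 214 and 195 in KD. DYSF was a gene of MDA-MB-231 whose distance between the lines widened, and ANXA8 a gene of SUM159 whose distance narrowed. ANXA8 shares reads with near-identical copies, and its count is uncertain. GATA3, a transcription factor of the luminal breast lineage, had 20.7 and 27.4 in MDA-MB-231 EV, 73.1 and 96.3 in KD, 154 and 128 in SUM159 EV and 48.4 and 45.8 in KD.

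**Figure D2:**
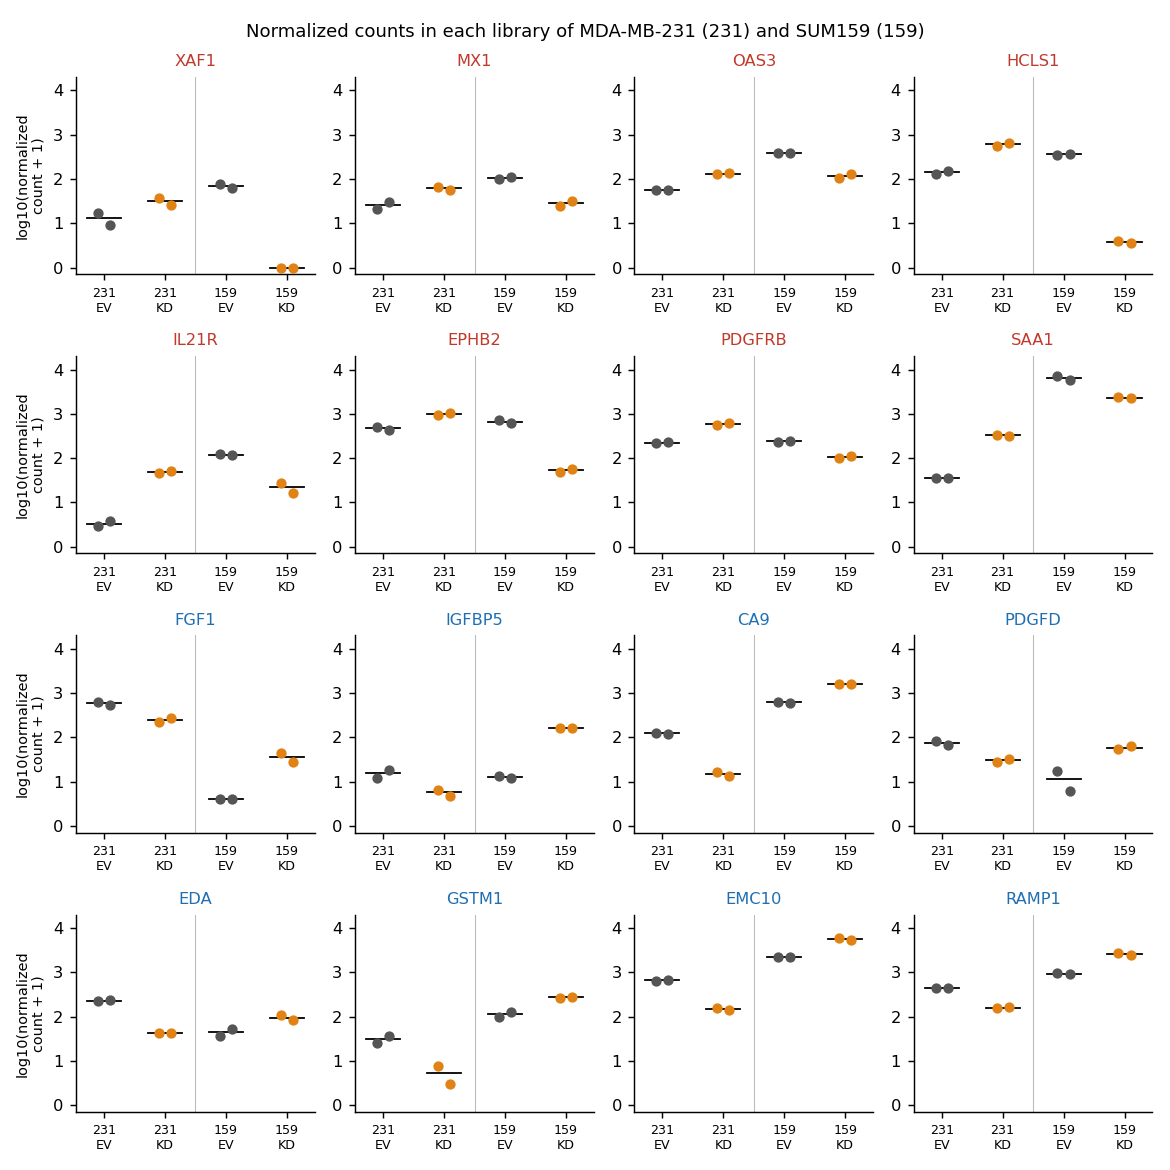
Normalized counts, as log10 of the count plus 1, of 16 members in the 8 libraries of MDA-MB-231 and SUM159. Points are single libraries (grey EV, orange KD) and bars are group means. Red titles are genes up in MDA-MB-231 and down in SUM159 and blue titles the opposite. In each of the 16 genes KD libraries lie on opposite sides of EV libraries in the 2 lines, which the rule favours.

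The second group held 5 genes of secreted growth signals. FGF1, the broad ligand of fibroblast growth factor receptors, had 637 and 544 in MDA-MB-231 EV, 216 and 270.0 in KD, 3.03 and 3.02 in SUM159 EV and 44.4 and 26.8 in KD. PDGFD, which activates PDGFRB, had 80.0 and 66.7 in MDA-MB-231 EV, 27.2 and 30.8 in KD, 16.1 and 5.03 in SUM159 EV and 52.4 and 62.3 in KD. PDGFD and its receptor PDGFRB therefore moved in opposite directions within each line, PDGFD by -1.33 and 2.43 and PDGFRB by 1.38 and -1.20. IGFBP5, which binds insulin-like growth factors, had 11.3 and 17.4 in MDA-MB-231 EV, 5.62 and 3.85 in KD, 12.1 and 11.1 in SUM159 EV and 165 and 160.0 in KD. EDA, the ectodysplasin ligand, had 220.0 and 234 in MDA-MB-231 EV, 42.2 and 41.4 in KD, 35.3 and 50.3 in SUM159 EV and 105 and 82.2 in KD. All of these had KD libraries outside the range of their EV libraries in both lines, which the rule favours.

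CA9, a carbonic anhydrase that hypoxia raises, had 124 and 120.0 in MDA-MB-231 EV, 15.9 and 12.5 in KD, 618 and 607 in SUM159 EV and 1594 and 1561 in KD. It fell 8.57-fold in MDA-MB-231 and rose 2.58-fold in SUM159, and ARHGEF39 overlaps it on the other strand. EMC10, a subunit of the endoplasmic reticulum membrane complex, had 646 and 665 in MDA-MB-231 EV, 155 and 142 in KD, 2151 and 2248 in SUM159 EV and 5808 and 5380 in KD. Both were higher in SUM159 in EV, and the distance between the lines widened in KD. GSTM1, a glutathione transferase whose reads GSTM2 can share, had 24.5 and 35.6 in MDA-MB-231 EV, 6.56 and 1.93 in KD, 96.9 and 125 in SUM159 EV and 267 and 280.0 in KD.

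RAMP1, a partner of the calcitonin receptor-like receptor, had 451 and 436 in MDA-MB-231 EV, 154 and 159 in KD, 948 and 907 in SUM159 EV and 2680 and 2464 in KD. RAB38, a GTPase of melanosome traffic, had 171 and 227 in MDA-MB-231 EV, 81.5 and 106 in KD, 9.08 and 11.1 in SUM159 EV and 25.2 and 33.7 in KD. RAB3B, a GTPase of secretory vesicles, had 15.1 and 17.4 in MDA-MB-231 EV, 1.87 and 9.63 in KD, 78.7 and 75.4 in SUM159 EV and 156 and 181 in KD. RAMP1 and RAB3B were higher in SUM159 in EV and RAB38 in MDA-MB-231, so the level in EV did not have 1 order within this class. TNFAIP8L3, which carries phosphoinositides, had 19.8 and 15.5 in MDA-MB-231 EV, 4.68 and 7.71 in KD, 1058 and 1124 in SUM159 EV and 4049 and 4070 in KD. HOXC13, a homeobox factor, had 2.82 and 5.48 in MDA-MB-231 EV, 0 and 0.963 in KD, 512 and 563 in SUM159 EV and 1281 and 1275 in KD, and HOXC13-AS overlaps it on the other strand. Members without a symbol and noncoding RNAs were more numerous in the second group. In that group 19 of 49 overlapped another gene with a mean of at least 10 counts, against 5 of 47 in the first. How many of all genes tested overlap another in this way was not counted, so these numbers are a description only.

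Reading the gene through its leading transcript, the one with the most counts over the 8 libraries, gave the same directions in both lines for 47 of 47 and 45 of 49 genes. The exceptions were SIRPB1, at 0.00 in MDA-MB-231, and FRAS1, MAGI2-AS3 and PIP5K1B, at 0.00 in SUM159. This transcript held a median of 80.1% and 83.6% of the gene's counts. Its counts are part of the sums that the rule used, so the agreement in direction is not independent of the rule. When each gene was instead read only through the transcript with the largest mean over all 12 libraries, 27 of the 47 and 18 of the 49 still passed the rule. OAS3 then had a difference of the KD effects of -0.49 in place of 2.95, and SIRPB1, whose relatives share reads, 1.81 in place of -3.01, neither past the test.

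The EV libraries show from which level the genes started. Of the 47 genes of the first group, 35 (74.5%) were higher in SUM159 EV and 9 (19.1%) in MDA-MB-231 EV, where 39.2% and 36.4% of all genes tested were. Of the 49 of the second group, 31 (63.3%) were higher in MDA-MB-231 EV and 13 (26.5%) in SUM159 EV. The median difference between the lines in EV was -2.36 in the first group and 2.49 in the second, -2.37 and 1.93 with groups at or under 3 counts set to 3, and -0.03 over all genes tested. The EV libraries also enter the rule, and nothing more is read from these shares. The share in the second group depended on the setting. Read only through the transcript with the largest mean over all 12 libraries, 8 of its then 25 genes were higher in MDA-MB-231 EV. With only genes at a mean of at least 50 counts, 13 of 28 were. Without MDA-MB-231 EV replicate 2 the second group had 33 members, of which 16 were higher in MDA-MB-231 EV.

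In the KD libraries, 36 of 47 genes (76.6%) were higher in MDA-MB-231, as were 39.2% of all genes, and 28 of 49 (57.1%) were higher in SUM159, as were 38.7% of all genes. The line with the higher level changed places, with both differences past the test, in 24 and 10 genes. Among these were HCLS1, EPHB2, ACSS1, BACE2, MX1, XAF1, IL21R and GATA3 in the first group and PDGFD, EDA, FNDC4, SYPL2, SH2D3A and SLITRK6 in the second. The distance between the lines narrowed in 11 and 21 others, such as ANXA8, SAA1 and OAS3 in the first and FGF1 and RAB38 in the second. It widened in 12 and 18, such as DYSF, CYP2S1, CA9 and EMC10. The KD libraries enter the rule too, and opposite changes of this size favour a change of places. The share of all genes tested that changed places was not computed, so nothing is read from these counts.

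**Figure D3:**
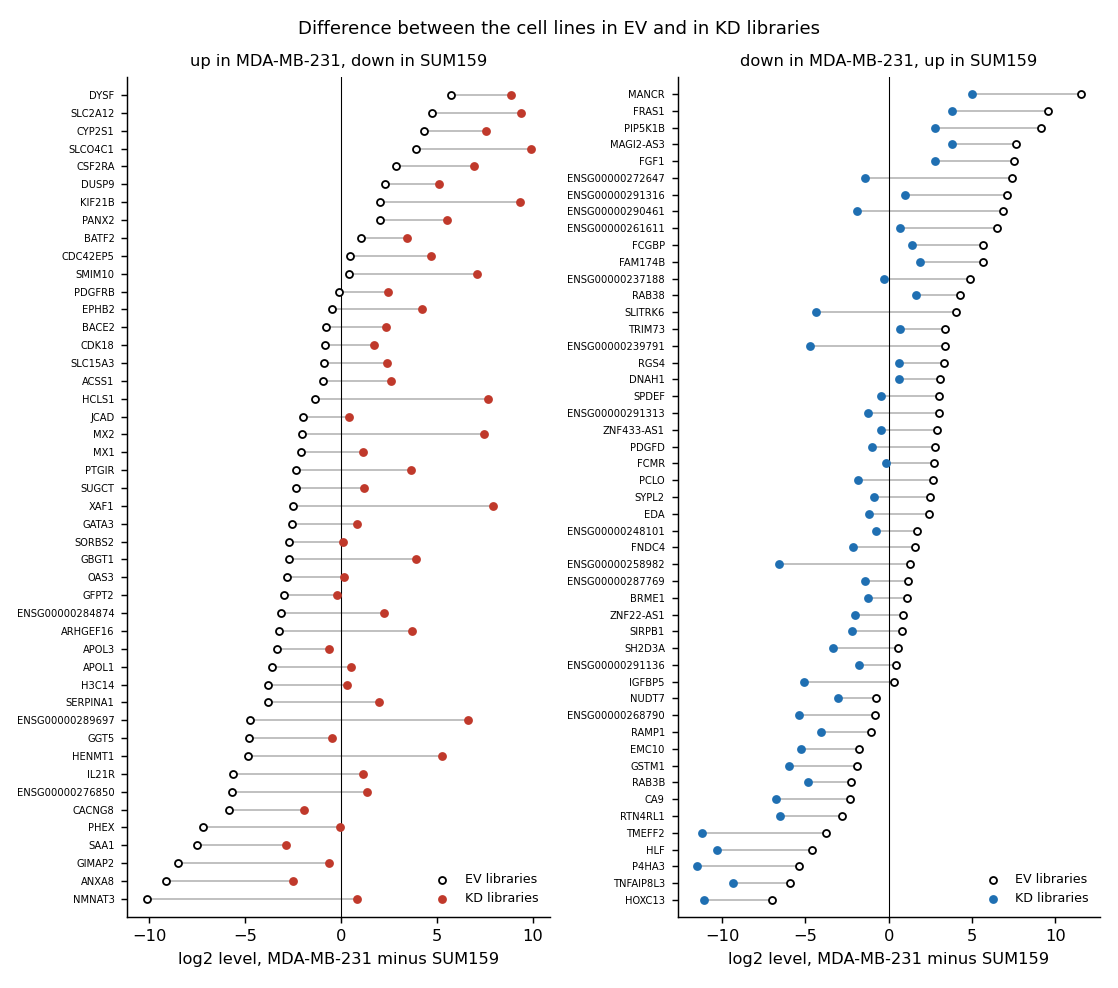
Log2 level in MDA-MB-231 minus SUM159 for 46 of the 47 genes (left) and the 49 genes (right), in EV libraries (open circles) and in KD libraries (filled circles). In the left panel the filled circle lies to the right of the open one and in the right panel to the left, as the rule requires, and where the 2 circles lie on either side of 0 the fitted order of the lines changed.

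The gene lists were written from general knowledge. On at least 1 of them were 16 genes of the first group and 12 of the second. Most members were thus on no list, and the shares below describe the tested genes of each list. Genes called in opposite directions at any size were 1219 (7.37% of all tested) up in MDA-MB-231 and down in SUM159, and 806 (4.87%) of the other kind. Antigen presentation had the highest share of the first kind, 13 of 26 tested members (50.0%), with 1 of the second kind. HLA-B, a class I molecule, was 6101 ± 104 (SD, n = 2) in MDA-MB-231 EV and 9610 ± 236 in KD, and 9618 ± 228 in SUM159 EV and 2842 ± 46.7 in KD. TAP1, a peptide transporter subunit, was 1278 ± 19.6 and 1696 ± 41.6 in MDA-MB-231, and 4107 ± 27.8 and 2423 ± 100 in SUM159. The 1 gene of the second kind was CD274, the PD-L1 gene, which was 2497 ± 18.9 and 1216 ± 41.7 in MDA-MB-231 and 118 ± 13.1 and 217 ± 1.09 in SUM159. None of the 26 reached 2-fold in both lines. Next by share of the first kind came sterol synthesis, with 8 of 24 (33.3%), against 2 (8.33%) of the second. S100 proteins, annexins and galectins had 7 of 23 (30.4%) and 2 (8.70%). Antioxidant and detoxification genes had 12 of 44 (27.3%) and 5 (11.4%), ahead of the interferon-response genes.

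Of 68 interferon-response genes tested, 18 (26.5%) were up in MDA-MB-231 and down in SUM159 and 3 (4.41%) the reverse, and 4 reached 2-fold in both lines, namely XAF1, MX1, MX2 and OAS3. In MDA-MB-231, 27 rose and 11 fell, where 21.2% and 16.5% of all genes tested did, while in SUM159 8 rose and 43 fell, where 28.6% and 31.4% did. The median difference of the KD effects over the list was 0.92, against 0.00 over all genes tested. Of its members, 45 were called higher and 7 lower, where 27.7% and 23.2% of all genes tested were. IFI16, a DNA sensor, was 222 ± 14.5 and 421 ± 23.2 in MDA-MB-231 and 1591 ± 13.4 and 573 ± 52.5 in SUM159, and the difference was 2.39 (SE 0.11, adjusted p = 3.55e-14). IRF1, an interferon regulatory factor, was 416 ± 43.7 and 568 ± 41.8 in MDA-MB-231 and 783 ± 57.7 and 183 ± 8.65 in SUM159. IFI30, a lysosomal thiol reductase, went the other way, by -0.44 in MDA-MB-231 and 1.11 in SUM159.

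The cytokines, chemokines and NF-kB targets had the highest median difference of the lists, 1.44 over 56 genes. Of these genes, 6 (10.7%) were of the first kind and 0 of the second, against 7.37% and 4.87% of all genes tested. In SUM159, 37 of them fell and 5 rose, where 31.4% and 28.6% of all genes tested did. In MDA-MB-231, 10 rose and 11 fell, where 21.2% and 16.5% did. CSF1, the macrophage growth factor, rose from 1191 ± 10.6 to 2747 ± 88.7 in MDA-MB-231 and fell from 4263 ± 50.3 to 2424 ± 68.0 in SUM159. The growth factors and angiogenic factors had a median of -0.49 over 49 genes. Of these, 9 were called higher and 19 lower, where 27.7% and 23.2% of all genes tested were. On that list were 3 of the 49 members of the second group, FGF1, PDGFD and IGFBP5. Of 47 receptor kinases and phosphatases, 6 were of the first kind and 0 of the second, with a median of 0.03.

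Nuclear genes of the respiratory chain had the highest share of the second kind, 20 of 77 (26.0%), against 3 of the first kind, without a member that changed 2-fold in both lines. COX6B1, a subunit of cytochrome c oxidase, was 4138 ± 2.07 and 2718 ± 63.1 in MDA-MB-231 and 5159 ± 32.9 and 7926 ± 128 in SUM159, and the difference was -1.23 (SE 0.05, adjusted p = 4.89e-16). Among the ribosome genes, 15 of 107 rRNA processing factors and 6 of 79 cytosolic ribosomal proteins were of the first kind and 2 and 9 of the second. Of the 24 aminoacyl-tRNA synthetases and their partners, 23 had a KD effect called higher in MDA-MB-231 than in SUM159. Over all genes tested 27.7% did. Of the 24, 0 were of the first kind and 1 (4.17%) was of the second. That gene was EEF1E1, a scaffold of the synthetase complex, at -0.30 in MDA-MB-231 and 0.29 in SUM159. In SUM159, 23 of them fell and 1 rose, where 31.4% and 28.6% of all genes tested did. In MDA-MB-231, 16 fell and 0 rose, where 16.5% and 21.2% did.

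ASNS, VRK1, LMCD1, TPM1, MDK and ATP1B1, which the study names as targets, were not among the 96. ASNS, which makes asparagine, fell in both lines (-0.82 and -2.73), as did VRK1, a nuclear kinase (-0.66 and -0.88). LMCD1, TPM1 and MDK rose in both, and ATP1B1, a sodium pump subunit, moved in opposite directions (-0.24 and 1.21) without reaching 2-fold in MDA-MB-231.

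**Figure D4:**
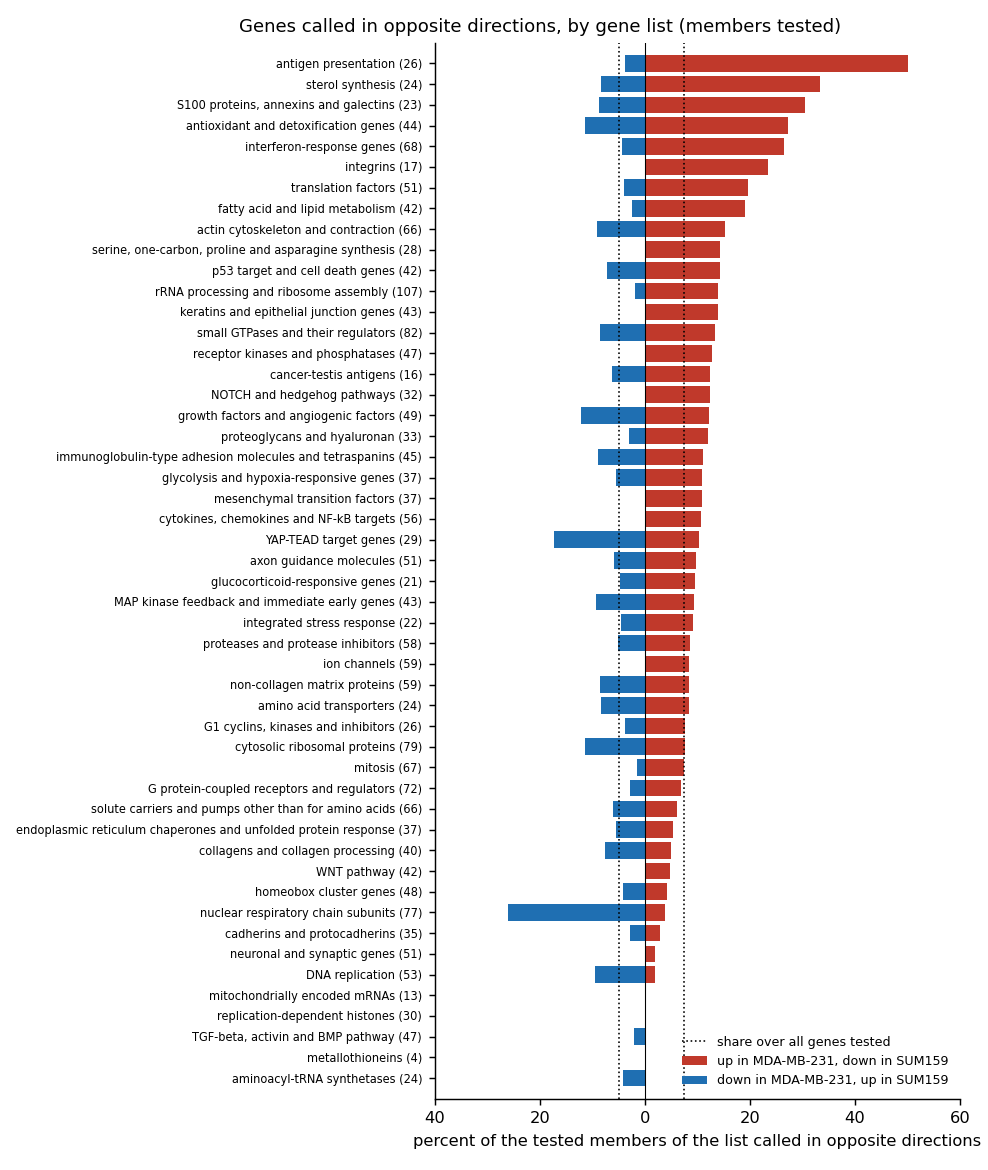
Percent of the tested members of each of the 50 gene lists called in opposite directions at any size, to the right those up in MDA-MB-231 and down in SUM159, to the left those of the opposite kind, with the number tested in brackets. Dotted lines mark 7.37% and 4.87%, the shares over all genes tested, and antigen presentation reaches 50.0% to the right and the respiratory chain 26.0% to the left.

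The comparison of BT549 OE with EV did not choose the genes, but its 4 libraries entered the scaling, the filter on low counts and the estimate of spread behind the rule. With the 8 KD and EV libraries alone, 46 of the 47 and 48 of the 49 genes were tested, and 47 and 61 genes passed the rule, of which 44 and 46 were among the members. With TRMT112 OE, 12 of the 47 genes (25.5%) were higher and 18 (38.3%) lower than in EV, and 11 (22.4%) and 18 (36.7%) of the 49, where 35.6% and 35.0% of all genes tested were. The shares that were higher lay below the share over all genes, and the shares that were lower lay near it. The median change was -0.40 and -0.49, against 0.02 over all genes tested, and -0.19 and -0.39 with groups at or under 3 counts set to 3. Of the 47 and 49 genes, 9 and 6 were below 3 counts in all 4 BT549 libraries. Transcripts at 0 in all 4 are not in the table used here.

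Within the first group, 7 of the 8 interferon-inducible genes were lower in BT549 OE. OAS3 had 9596 and 9438 in EV and 11.1 and 9.06 in OE. MX1 fell from 10406 and 10279 to 35.4 and 28.3. BATF2 had 301 and 302 in EV and 1.11 and 0 in OE. MX2 was the exception, with 1014 and 1096 in EV and 1342 and 1204 in OE (log2 0.27, adjusted p = 0.00444). Over the list as a whole, 65 of 68 interferon-response genes were lower and 1 higher in OE, with a median of -5.32. EPHB2 had 0 in both EV libraries and 31.0 and 35.1 in OE, at least 10.0-fold higher, and BACE2 rose from 219 and 198 to 4301 and 4299. Of the second group, IGFBP5 had 0 in both EV libraries and 104 and 118 in OE, at least 33.6-fold higher, while SIRPB1 fell from 1478 and 1494 to 17.7 and 9.06.

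**Figure D5:**
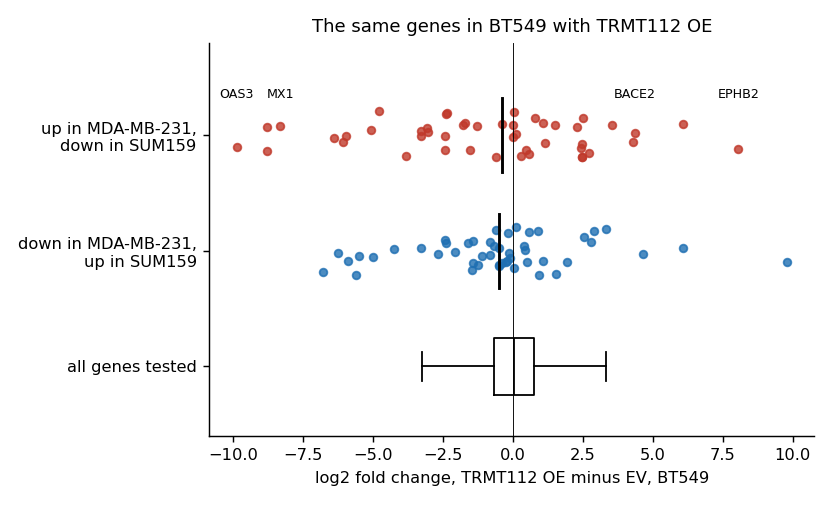
Log2 fold change of TRMT112 OE over EV in BT549. Points are the genes up in MDA-MB-231 and down in SUM159 (red) and the opposite kind (blue) with the median as a bar, at -0.40 and -0.49, and the box shows all genes tested, with whiskers at the 5th and 95th percentiles. Some points far from 0, such as EPHB2, are genes at 0 counts in a group, whose fitted values are not bounds.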

How the data were processed

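Polysome RNA of 12 libraries from 3 cell lines was sequenced. Per the methods, the authors used Trimmomatic for trimming, HISAT2 for alignment to GRCh38 and SAMtools to drop duplicates. The counting tool and annotation are not given in the sources used here. The deposited values are expected counts per transcript, unrounded. The 8 MDA-MB-231 and SUM159 columns, whose unit is listed as other, also hold missing marks in 5.08% of rows, taken as 0. The methods name a stranded kit after rRNA depletion and the labels a poly(A) kit, so strand is unknown.

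Of 201932 transcripts, 79.6% matched GENCODE 44, and their counts were summed per gene symbol and rounded. edgeR 4.0.16 (R 4.3.3; limma 3.58.1) fitted the 6 groups with TMM scaling and the default filter on low counts, leaving 16538 genes and 6 residual degrees of freedom. No transcript in the table is at 0 in all 4 BT549 libraries, so genes silent there are not analysed here. Libraries are scaled to a common total, so a change shared by most genes is not visible. Totals were 22954226 to 27434677 counts. Scripts were checked on simulated counts.

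The members, gene lists and tests were chosen with earlier results of these data known. Named genes are TRMT112, the 12 members in each direction with the largest difference of the KD effects at a mean of at least 50 counts, members on a list, list genes with the smallest p, genes at the threshold, those the study names, and others by role. Not all were described, and 1 member is counted but not reported here by name. Alternatives were DESeq2 1.42.0, other scalings, filters, transcripts, libraries and a replicate block. Tables and plots were made with matplotlib 3.10.9, numpy 2.4.6 and pandas 2.3.3 under Python 3.11.15.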

Additional observations from a re-analysis of the deposited data

Results flagged for a closer look

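The KD effects in MDA-MB-231 and SUM159 differed in the test of the difference itself. This held for the 47 genes up in MDA-MB-231 and the 49 down in MDA-MB-231 that moved at least 2-fold in opposite directions, where it follows from how they were chosen. It also held for TRMT112, whose difference of the KD effects was -0.47 on the log2 scale. No group had enough libraries for a search for outlying ones.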

How the results depend on the processing

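With 2 libraries per group, 26 of the 47 and 13 of the 49 genes passed the rule in all 8 fits that left out 1 library. Over these fits the genes with a higher KD effect in MDA-MB-231 numbered 4268 to 4334, those with a lower one 3435 to 3583, and those at least 2-fold 2327 to 2372. The opposite genes numbered 40 to 50 and 33 to 44, those of the first group higher in SUM159 EV 30 to 36, those of the second higher in MDA-MB-231 EV 16 to 26, and those higher in BT549 OE 10 to 13 and 8 to 14. The TRMT112 difference was -0.51 to -0.43. The lowest value of 16 came without MDA-MB-231 EV replicate 2.

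Reading each gene through its main transcript gave 2489 genes with a lower KD effect, 25 genes in the second group, 8 of them higher in MDA-MB-231 EV and 7 higher in BT549 OE. The difference of the KD effects then changed sign for OAS3 (-0.49), SIRPB1 (1.81) and the interferon-response gene PLSCR1 (0.25), none past the test. With a mean of at least 50 counts the second group had 28 genes, 13 of them higher in MDA-MB-231 EV, since fewer genes were tested. The causes of these changes were not tested. DESeq2 gave 43 and 35 opposite genes, scaling by library size 40 and 58, and the 8 libraries alone 47 and 61. The last 2 settings turned the excess of genes with a higher KD effect into an excess of lower ones, 4207 against 4238 and 4174 against 4399. Of the 2579 values of 154 single genes, 2545 kept direction and call and 31 lost the call.

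Replicate numbers did not pair the libraries, since the correlations of replicate differences between groups were -0.04 to 0.03. With the replicate block, 47 and 43 genes were opposite and the TRMT112 difference was -0.47.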
